A study of Mus musculus with 36 samples.

Results

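The Ago2 peaks that the authors' annotation places in 5' untranslated regions (5' UTRs) numbered 284, which is 3.74% of the 7585 annotated peaks of the series. A peak was taken when its annotation read utr5 (208 peaks) or the extended form utr5* (76 peaks), and no measured value entered the choice. The 284 peaks name 266 genes, 21 of the peaks name a pair of genes, and their median width was 57 bases. They were measured in colonic tumours of C57BL/6 mice by Halo-enhanced Ago2 pulldown, in which Ago2 fused to a Halo tag is crosslinked to its RNA by UV light, pulled down, and the bound mRNA fragments are sequenced. The G12D and WT tumours all carried Halo-Ago2/+, Villin-CreER/+ and Apc(fl/fl), and the groups, called here by their labels, differ by 1 further allele that the WT tumours lacked, so that "WT" does not refer to Apc, which was deleted in both. There were 6 mRNA libraries of each genotype, of which replicates 1 to 3 are batch 1 and replicates 4 to 6 are batch 2.

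In all animals 4-hydroxytamoxifen (200 µl at 5 mg/ml, given as an enema at 8 to 12 weeks of age) switched on a Cre driven by the Villin promoter, which is active in gut epithelium and leaves other cells unrecombined. Tumour lawns were resected or scraped from moribund animals and crosslinked 3 times at 400 mJ per square centimetre. The tissue label could be checked only through the genes that had peaks: 22 of 28 colon epithelium markers had a peak in some region, against 10 of 26 fibroblast and smooth muscle markers, 3 of 25 leukocyte markers and 1 of 17 endothelial and nerve markers. Being bulk tumours, they cannot tell fewer cells of a type from less RNA per cell. Input libraries were not analysed here, so a high value can come from abundant RNA as well as from strong binding.

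Ago2 is the protein that carries miRNAs to their targets. The miRNA's seed, near its 5' end, pairs with the mRNA, and effective sites are best known from 3' UTRs, where bound Ago2 leads to repression and decay of the mRNA. The 5' UTR is the stretch that the ribosome scans before it reaches the start codon, and it holds elements of translational control such as upstream reading frames and the oligopyrimidine tract of ribosomal protein mRNAs.

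The miRNA families with annotated sites in the most 5' UTR peaks were let-7 (31 peaks), miR-24 (27), miR-29 (22), the miR-15/16 family (18) and miR-194 (16). Their most abundant members in these tumours are printed 5' to 3' from RefSeq (GRCm38.p6) to show the letters that each site pairs with, with the seed, bases 2 to 8, in capitals.
mmu-let-7i-5p: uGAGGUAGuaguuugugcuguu
mmu-miR-24-3p: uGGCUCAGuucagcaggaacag
mmu-miR-29a-3p: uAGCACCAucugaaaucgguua
mmu-miR-16-5p: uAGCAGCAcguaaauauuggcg
mmu-miR-194-5p: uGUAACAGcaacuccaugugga
These 5 seeds differ from each other. The site for miR-24 reads CTGAGCC in the mRNA, and it shares the letters GAGCC with the site for miR-484, GAGCCTG.

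Sequence was at hand only around RefSeq gene starts (from 250 bases before to 50 after), where 35 of the 5' UTR peaks overlapped a window and 6 lay wholly inside one. Of 35 annotated sites in those peaks, 19 were found in the overlapping letters. The following stretches, on the strand of the gene in GRCm38.p6 coordinates, are shown as examples of 5' UTR peaks whose site could be read, for 3 of the 5 families above and for 2 others, and the capitals mark the annotated site.
Hist1h2be, miR-24, chr13:23585934-23585963, minus strand: tctgaagatgcCTGAGCCAgccaagtccgc
Hist1h2bj, miR-24, chr13:22043218-22043247, plus strand: tcctgcttcactatgcCTGAGCCtgcgaag
Sema4b, miR-24, chr7:80198588-80198617, plus strand: acttgagcaacCTGAGCCggaggaggacgc
Mbtd1, miR-24, chr11:93885997-93886026, plus strand: ccctgctgattCTGAGCCccgcgtcgtgcc
Cdk5rap3, miR-29, chr11:96916422-96916451, minus strand: ccgctcaggatTGGTGCTAggctgggccgg
Slc3a1, let-7, chr17:85028367-85028396, plus strand: cagcaagacacctttCTACCTCtgtccctg
Gne, miR-22, chr4:44084152-44084181, minus strand: gaccacttcgtGGCAGCTAaaccagaggcc
Arl14, miR-17 family, chr3:69222411-69222440, plus strand: tgttcactgtgGCACTTTActctcttttcc
In both H2B histone genes the miR-24 site begins 4 bases after the A of an ATG, and the peak covers that ATG. If that ATG is the start codon, the site lies in coding sequence and not in the 5' UTR, whatever the label. Start codons were not looked up here. RefSeq lists these genes as H2bc6 and H2bc11. In Hist1h2bj the miR-24 site runs into an annotated miR-484 site. The letters CTGAGCC occurred in the first 50 bases after the start in 1.04% of all 32851 RefSeq start windows, and their reverse complement, GGCTCAG, in 0.776%. Over the whole 300-base windows CTGAGCC occurred in 5.13%. Among 18 windows of H2B genes, 5 held CTGAGCC in those first 50 bases, each time 4 bases after the A of an ATG. A match is a description of letters, not of a bound site.

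The label "5' UTR" did not always mean the beginning of the gene span. Of the 258 peaks that could be placed on a RefSeq gene, 109 (42.2%, 95% Wilson interval 36.4 to 48.3%) had their centre within 1 kb of the gene start, against 4.61% of exonic, 1.25% of intronic and 0.441% of 3' UTR peaks. The plain label was near the start in 101 of 201 placed peaks (50.2%) and the extended label in 8 of 57 (14.0%). The centre lay over 10 kb inside the gene span in 71 peaks and past its midpoint in 56. The gene start here is the outer edge of the whole RefSeq gene span, and transcripts can start farther inside. The peaks on Hist1h2be and Sema4b lay 35183 and 11753 bases inside, yet their printed miR-24 sites begin at bases 19 and 12 from a RefSeq start. These distances therefore do not show how far a peak is from the start of its transcript. Some transcript of the annotation had an intron over 99 of the 208 plain peaks, so that the 5' UTR in question is not shared by every transcript of the gene. The peak on Muc2, over which no intron is annotated, lay 57696 bases inside a gene of 64352 bases, at 89.7% of the span. Wilson intervals here cover counting error over peaks only.

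**Figure D1:**
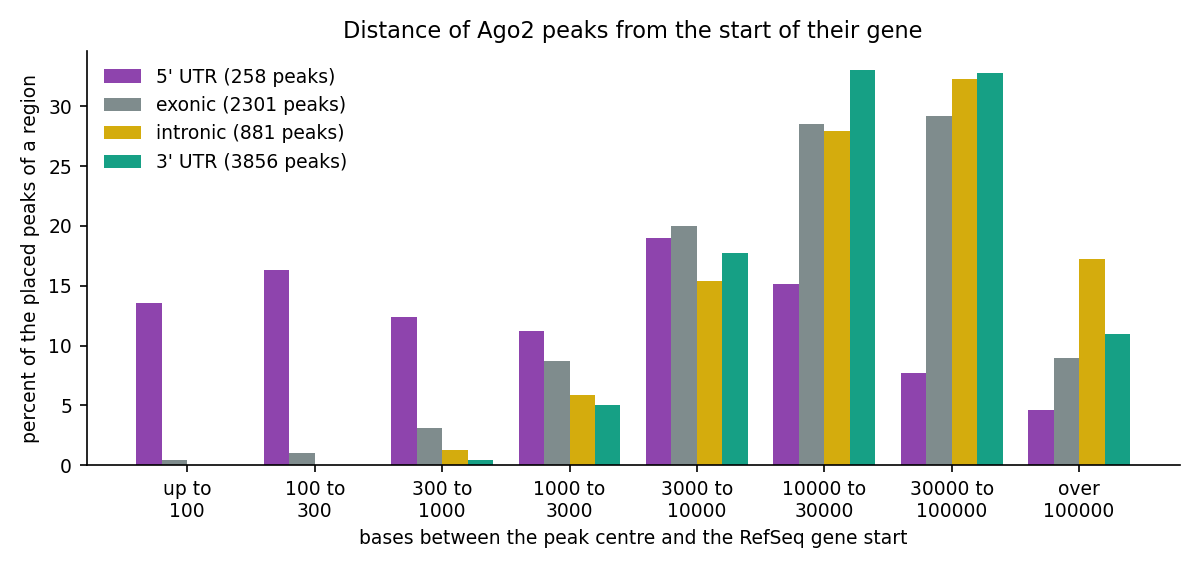
Percent of the placed peaks of each region (y axis) by the distance in bases between peak centre and RefSeq gene start (x axis, unequal bins). The 5' UTR peaks fill the bins up to 1000 bases, which hold 42.2% of them, and also reach far into gene spans, while 3' UTR peaks start mostly beyond 3000 bases. Gene start is the outer edge of the gene span, and transcripts can start farther inside.

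The deposited values are read counts divided by a size factor per library, called normalised counts here. Reads recovered in peaks came to between 125384 and 974013 in G12D libraries and between 30607 and 770237 in WT libraries, and 1 read was worth 0.482 to 4.53 normalised counts. WT replicates 5 and 6 were the shallowest (30607 and 57037 reads), and 60.6% and 31.3% of the 5' UTR peaks had no read in them, so results are also given without them where they matter. The labels number samples without saying that each is a separate mouse, and p-values measure the spread between these samples. The mean over the 12 libraries ran from 0.0591 to 1672 normalised counts per 5' UTR peak, with a median of 17.3, against 18.7 for all annotated peaks and 19.2 for 3' UTR peaks. A read was present in all 12 libraries for 88 of the 284 peaks. The authors made 1 peak list per genotype: 207 of the 5' UTR peaks stood in the G12D list only, 73 in both and 4 in the WT list only. The share in the WT list was 27.1%, against 28.1% of all annotated peaks.

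The 5 peaks of highest mean, on Muc3, Muc2, Lypd8, Trp53inp1 and AC132303.1, held 25.1 to 42.8% of the 5' UTR reads of a G12D library, with a median of 31.9%, and 25.2 to 49.4% of those of a WT library, with a median of 26.9%. The genotypes overlapped over almost the whole of these ranges.

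Muc3, a membrane-bound mucin of the intestinal brush border, had 7 of the 284 peaks, all with the extended label and 14858 to 16337 bases inside the gene. Its highest peak, at chr5:137150516-137150581 on the minus strand, had 215, 450 and 5144 normalised counts as the lowest, median and highest value in G12D tumours, against 31.3, 242 and 5711 in WT tumours. Both genotypes held libraries at 3647 or above and libraries at 539 or below, and the high ones were G12D replicates 1 and 2 and WT replicates 2 and 3, all of batch 1. Summed over the 7 peaks, Muc3 took 25.8% and 37.8% of the 5' UTR reads in the 2 high G12D libraries and 35.7% and 47.5% in the 2 high WT libraries. In batch 2 it took 1.34 to 2.59% in G12D tumours and 0.751 to 2.49% in WT tumours. The fold change between genotypes (log2 1.21 ± 0.77 SE in limma, adjusted p = 0.210) did not pass the threshold, nor did that of any of the other 6 Muc3 peaks. The authors annotated an 8-mer site for let-7 and 7-mer sites for miR-140, miR-34, miR-30a-3p and miR-26 in the highest peak.

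Muc2, the secreted gel-forming mucin of goblet cells, had 243, 1467 and 2766 normalised counts (lowest, median and highest) in G12D tumours and 58.9, 282 and 1507 in WT tumours. WT replicate 4 stood at the top of its group, the other 5 WT tumours were at 415 or below, and the groups overlapped. The log2 fold change was 1.80 ± 0.71 (SE) in limma with an adjusted p of 0.111, and 0.45 without WT replicates 5 and 6. Its peak carries an 8-mer site for miR-27 and a site for the miR-15/16 family.

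Lypd8, which encodes a protein of the colonic surface that keeps flagellated bacteria off the epithelium, had 3 peaks. The highest lay 44.5 bases from the gene start and had 158, 628 and 1206 normalised counts in G12D tumours, against 447, 466 and 802 in WT tumours. Here the lowest value was a G12D tumour and the WT range lay inside the G12D range. The log2 fold change was 0.04 ± 0.54 (limma adjusted p = 0.946), below the median of 1.33 over all peaks. No 7-mer or 8-mer site was annotated in this peak.

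Trp53inp1, a p53-induced regulator of stress responses and autophagy, had 293, 428 and 1289 normalised counts in G12D tumours and 31.7, 454 and 841 in WT tumours at its highest peak, with overlapping groups. That peak carries an 8-mer site for the miR-17 family. Atp1b1, the beta subunit of the sodium pump, had 157, 202 and 494 normalised counts in G12D tumours and 9.06, 211 and 421 in WT tumours, again with overlap. Ctnnd1, the catenin that stabilises cadherins at cell contacts, had 10.4, 139 and 386 normalised counts in G12D tumours and 5.59, 77.8 and 779 in WT tumours at a peak with no annotated seed site. That peak also names RP23-387F9.7. The highest value of Ctnnd1 came from WT replicate 5, where 172 of the 828 reads in 5' UTR peaks (20.8%) were at this peak.

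Mmp7, the metalloprotease matrilysin and a known Wnt target, had 25.6, 97.0 and 218 normalised counts in G12D tumours and 18.1, 76.9 and 396 in WT tumours, and its highest library was WT replicate 4. The peak of Ifitm3, an antiviral membrane protein, had 62.5, 125 and 282 normalised counts in G12D tumours and 18.1, 195 and 241 in WT tumours. Nucb1, a calcium-binding protein of the Golgi, had 91.3, 149 and 498 in G12D tumours and 4.53, 46.0 and 278 in WT tumours. All 3 overlapped between genotypes, and the limma log2 fold changes of Mmp7 (0.22 ± 0.69) and Ifitm3 (0.09 ± 0.67) lay below the median of all peaks, while that of Nucb1 (2.39 ± 0.81, adjusted p = 0.108) lay above it.

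H2B histone genes formed a group with a shared site. Histone H2B is a core protein of the nucleosome, and its replication-dependent mRNAs are made in S phase and end in a stem-loop. The series had 6 peaks that name H2B genes, all 6 with a 5' UTR label, and 5 of them (Hist1h2bj, Hist1h2be, Hist1h2bk, Hist1h2bm and Hist1h2bh) carried the miR-24 site printed above for the first 2. Because these genes are near-identical copies, reads may be split among them and the value of each is uncertain, so the sum is given too. Summed over the 5 peaks with a miR-24 site, H2B had 287, 605 and 919 normalised counts (lowest, median and highest) in G12D tumours and 58.9, 112 and 431 in WT tumours. Of the 6 G12D tumours, 4 were above the highest WT tumour, which was replicate 4, and the groups overlapped.

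Hist1h2bj had 81.0, 239 and 338 normalised counts in G12D tumours and 9.06, 36.7 and 203 in WT tumours (log2 fold change 2.43 ± 0.72, limma adjusted p = 0.108). Hist1h2be had 78.8, 116 and 292 in G12D tumours and 24.0, 39.0 and 94.8 in WT tumours (1.67 ± 0.59, limma adjusted p = 0.108). In each the lowest G12D tumours lay within the WT range, which WT replicate 4 extended upward. Hist1h2bk had 55.6, 103 and 175 normalised counts in G12D tumours and 0, 21.0 and 74.1 in WT tumours, and Hist1h2bm had 25.6, 69.8 and 129 in G12D tumours and 4.53, 13.5 and 47.9 in WT tumours. None of the 5 passed limma. DESeq2 on the recovered reads with the deposited size factors called 3 of the 5: Hist1h2bm (log2 1.89 ± 0.49, adjusted p = 0.00863), Hist1h2be (1.61 ± 0.43, adjusted p = 0.0119) and Hist1h2bk (2.01 ± 0.58, adjusted p = 0.0197). The same fit called 9.77% of all peaks and 15.8% of 5' UTR peaks higher. With size factors estimated on the peaks DESeq2 called none of the 5.

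**Figure D2:**
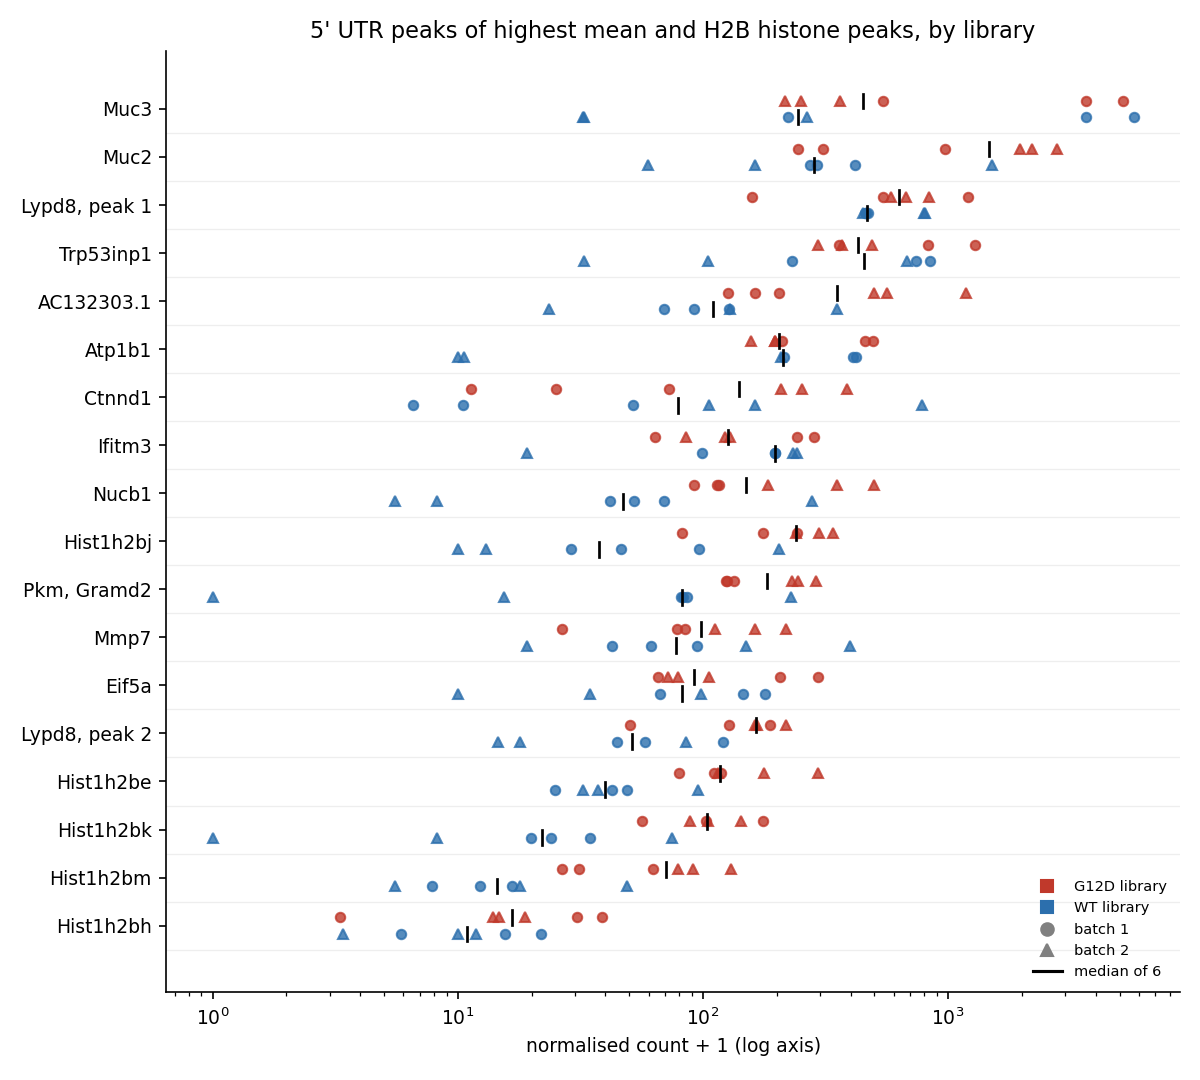
Normalised count plus 1 (x axis, log scale) in each of 6 G12D (upper row of a gene) and 6 WT libraries for the 15 5' UTR peaks of highest mean and 3 further H2B peaks, with medians as black bars. The 4 Muc3 libraries at 3647 or above are of batch 1 and of both genotypes, and for the H2B genes most G12D libraries lie above most WT libraries while WT replicate 4 overlaps them.

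Seed sites were about as frequent in 5' UTR peaks as elsewhere. A 7-mer or 8-mer site of some annotated family was present in 212 of 284 5' UTR peaks (74.6%, 95% Wilson interval 69.3 to 79.4%), against 76.4% of 3' UTR peaks and 76.0% of all annotated peaks. The strongest class, the 8-mer, was present in 32.7% (27.6 to 38.4%), against 37.5% (36.0 to 39.1%) of 3' UTR peaks. A 7-mer or 8-mer site was present in 74.3% (65.4 to 81.6%) of the 5' UTR peaks within 1 kb of the gene start and in 77.2% (69.8 to 83.2%) of those farther inside, and an 8-mer in 34.9% (26.6 to 44.2%) and 31.5% (24.6 to 39.4%).

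Single families had unlike shares in the regions. Sites for miR-24 were in 27 of 284 5' UTR peaks (9.51%, 95% Wilson interval 6.62 to 13.5%), against 5.15% (4.5 to 5.89%) of 3' UTR peaks and 4.96% of exonic peaks, and 5 of the 27 are the H2B genes. The H2B sites that could be read lie after an ATG and may be in coding sequence. Sites for let-7 were in 10.9% (7.80 to 15.1%) of 5' UTR peaks, against 7.79% (7.0 to 8.67%) of 3' UTR peaks, but exonic peaks held them in 13.0%. The passenger strand family miR-30a-3p had sites in 3.17% (1.68 to 5.91%) of 5' UTR peaks and 1.27% (0.964 to 1.67%) of 3' UTR peaks. At the other end, miR-19 had sites in 1.41% (0.549 to 3.56%) of 5' UTR peaks, against 4.01% (3.44 to 4.67%) of 3' UTR peaks, and miR-17 in 3.87% (2.18 to 6.80%), against 6.14% (5.43 to 6.94%). Families were not tested against chance, and sites of families with overlapping letters, such as let-7 and miR-196, are not independent.

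**Figure D3:**
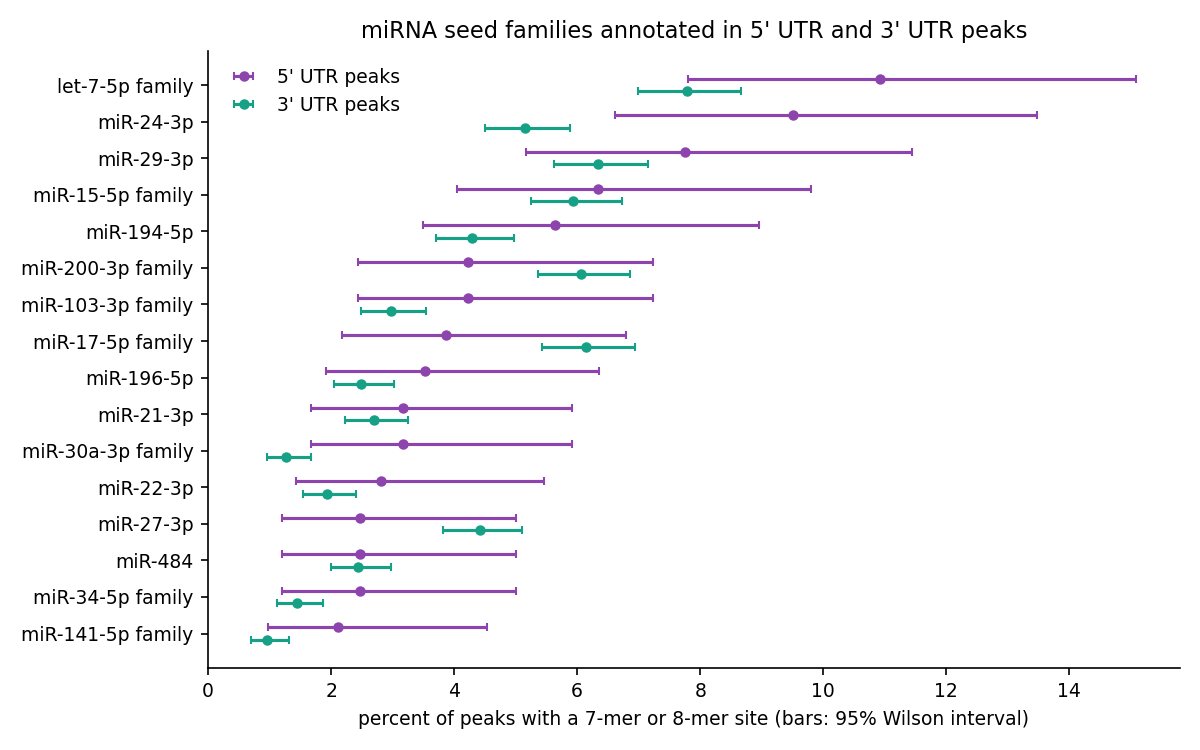
Percent of peaks with a 7-mer or 8-mer site (x axis) for the 16 families found in the most 5' UTR peaks, for 5' UTR peaks (purple) and 3' UTR peaks (green), with 95% Wilson intervals. The miR-24 interval for 5' UTR peaks lies above that for 3' UTR peaks, and most other intervals overlap.

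Families were also grouped by the letters of their seeds. Of 79 families with a sequence, 34 have a seed with at least 4 G or C among its 7 bases. A site of such a family was in 51.4% of 5' UTR peaks (95% Wilson interval 45.6 to 57.2%), against 48.0% (46.0 to 49.9%) of exonic and 43.9% (42.3 to 45.4%) of 3' UTR peaks. Sites of the 45 other families were in 40.1% (34.6 to 45.9%) of 5' UTR peaks, 46.8% (44.9 to 48.8%) of exonic and 52.0% (50.4 to 53.5%) of 3' UTR peaks. The base composition of the peaks was not analysed here, and its part in these shares was not tested.

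Site counts were set beside the levels of the miRNAs. Levels could be summed for 79 of the 88 annotated families, over the members matched by name. Only 517 of 596 miRNAs matched, and the others are left out, so a level may be too low and ranks may differ. The miR-200 family was the most abundant of the 79 in the miRNA libraries, with 36175 ± 10557 normalised counts in G12D and 35398 ± 6200 in WT tumours (mean and SD, n = 6 each), and it had sites in 12 of the peaks. In falling order of level, the next families had sites in 5 (miR-30-5p), 7 (miR-27), 0 (miR-21), 4 (miR-19), 11 (miR-17), 10 (miR-196) and 31 (let-7) of the peaks. The level of miR-24 was 7712 ± 1506 in G12D and 7747 ± 1355 in WT tumours, which is rank 15 among the 79 families.

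By reads rather than by peaks, the share at peaks with a seed site was lower over these 5' UTR peaks than over the 3' UTR peaks. In G12D libraries 71.0 to 86.5% of the reads in 5' UTR peaks were at peaks with a 7-mer or 8-mer site (median 79.5%), and in WT libraries 28.9 to 85.9% (median 77.0%). The share for 3' UTR peaks was 81.3 to 85.7% in G12D and 80.2 to 87.6% in WT libraries. The 5' UTR share was the lower one in 10 of 12 libraries, and the mean difference, 5' UTR minus 3' UTR, was -10.3 percentage points (exact two-sided sign-flip permutation test over 12 libraries, p = 0.0103, and 0.0410 adjusted over the 4 comparisons of whole libraries). The same peaks with the same site labels enter every library, and peaks with many reads weigh most. The p-values here therefore measure spread between libraries and not between peaks. WT replicates 5 and 6, at 28.9% and 50.7%, stood far below the rest, and without them the difference was -3.51 points (p = 0.0410, exact permutation test, n = 10). Within G12D libraries alone it was -4.46 points (p = 0.0625) and within WT libraries alone -16.1 points (p = 0.0938, both exact permutation tests with n = 6). For 8-mer sites alone, an alternative chosen after seeing the data, the direction turned, at 1.08 points (exact permutation p = 0.846).

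The share of peak reads that fell in 5' UTR peaks was compared between G12D and WT tumours. Since many of these peaks lie away from the gene start and input was not analysed, the share does not measure binding at the 5' end of mRNAs. It was 3.01, 3.47 and 4.60% (lowest, median and highest) in G12D tumours and 2.71, 3.32 and 4.84% in WT tumours. The groups overlapped almost completely. The means were 3.65 ± 0.63% in G12D and 3.58 ± 0.84% in WT tumours (SD, n = 6 each), a difference of 0.0658 percentage points (exact two-sided permutation test, p = 0.866, also after adjustment). Within batch 1 the difference was 0.0872 and within batch 2 it was 0.0443 points (exact permutation p = 0.900 in each, where the smallest p that 3 against 3 allows is 0.100). Its sign turned without WT replicates 5 and 6, to -0.174 points.

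The genotypes were also compared within genes that had peaks under both the 5' UTR and the 3' UTR label. There were 96 such genes, with 117 5' UTR and 202 3' UTR peaks, and 28 of them had more reads in the 5' UTR peaks. The peaks need not lie at the ends of 1 mRNA, since the highest 5' UTR peak lay at 49.8% of the gene span in Muc3, at 89.7% in Muc2, at 44.2% in Trp53inp1 and at 38.0% in Mtfr1. Over all libraries the 5' UTR share of these reads was 95.8% for Muc3, 93.3% for Muc2, 89.9% for Trp53inp1, 89.1% for Mtfr1, a regulator of mitochondrial fission, and 75.8% for Lypd8. For Atp1b1, which had 9 3' UTR peaks, it was 34.4%. Summed over the 96 genes, the 5' UTR share was 30.7, 36.8 and 52.9% in G12D tumours and 34.0, 38.8 and 55.5% in WT tumours, with wide overlap. The means, 39.6 ± 9.5% in G12D and 42.7 ± 9.0% in WT tumours (SD, n = 6 each), differed by -3.08 points (exact two-sided permutation test, p = 0.567, adjusted p = 0.756). In batch 1 the difference was -0.0954 and in batch 2 it was -6.07 points (exact permutation p = 1.00 and 0.100, where 0.100 is the smallest p possible within a batch). In batch 2 the G12D libraries (30.7 to 33.9%) all lay below the WT libraries (36.3 to 39.2%), which include the shallow replicates 5 and 6. The difference over both batches ran from -5.74 points without G12D replicate 2 to -0.514 points without WT replicate 2. With 5' UTR peaks within 1 kb of the gene start alone, a choice made after seeing the data, it was -7.69 points (exact permutation p = 0.121).

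The level of a typical 5' UTR peak was set against that of a typical peak elsewhere in the same library. The median log2(normalised count + 1) of 5' UTR peaks minus that of the other annotated peaks was -0.22, -0.05 and 0.04 (lowest, median and highest) in G12D tumours and -0.55, -0.16 and 0 in WT tumours. The groups overlapped, and WT replicates 5 and 6, where many peaks had no read, were at 0. The difference between genotypes was 0.13 (exact two-sided permutation test, p = 0.242, adjusted p = 0.485). Without WT replicates 5 and 6 it was 0.23 (exact permutation p = 0.0333), in batch 1 alone 0.27 (exact p = 0.200) and in batch 2 alone -0.02 (exact p = 0.900). It was 0.0566 without WT replicate 2 (exact p = 0.487) and 0.0563 over peaks with a mean of at least 5 (exact p = 0.654).

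**Figure D4:**
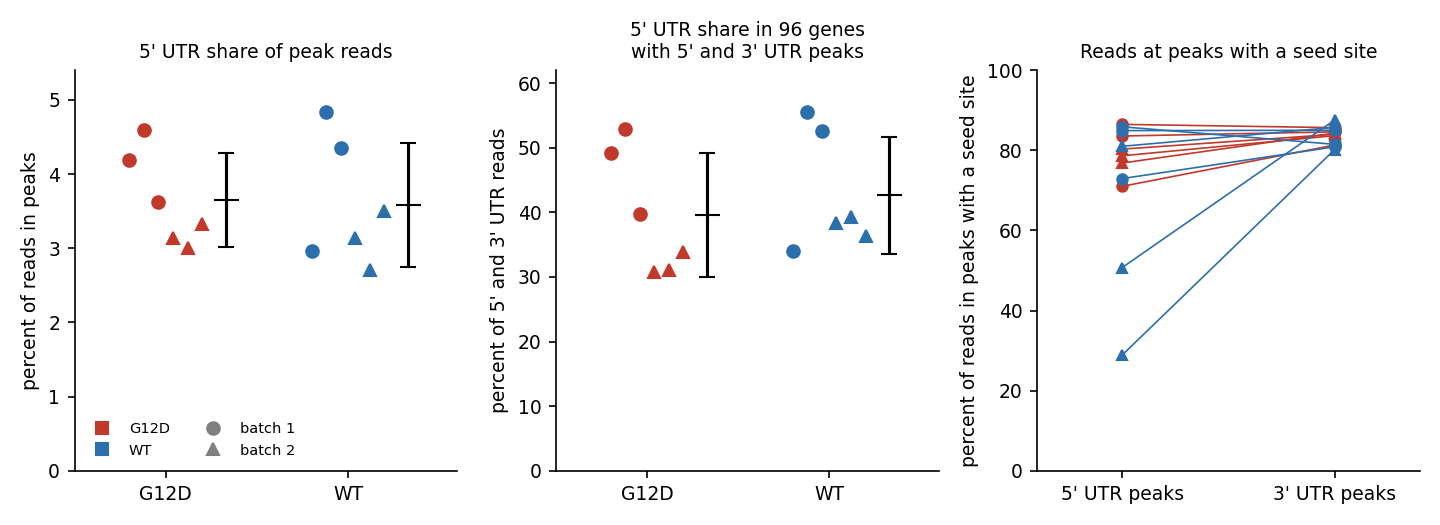
Left and middle, 5' UTR share of all peak reads and of the UTR reads of genes with 5' and 3' UTR peaks, in percent, by library (circles batch 1, triangles batch 2, bars mean and SD of 6). Right, percent of reads at peaks with a seed site in 5' and 3' UTR peaks, joined by library. Genotypes overlap in the first 2 panels, and WT replicates 5 and 6 are the low lines of the third.

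Peak by peak, no 5' UTR peak passed the test between genotypes. limma-trend on log2(normalised count + 1) with batch as a covariate tested 272 of the 284 peaks, those with a mean of at least 5, and called 0 at a Benjamini-Hochberg adjusted p below 0.05, as it called 0 of all 7527 peaks (0.0%). The smallest adjusted p of a 5' UTR peak was 0.108. Leaving out WT replicate 4 changed this: 127 of 272 were then called (46.7%), 125 higher and 2 lower in G12D tumours, against 45.3% of all peaks. At an unadjusted p below 0.05, 106 of the 272 were higher in G12D tumours, or 39.0%, against 35.9% of all peaks tested, and 1 was lower, against 0.173%. The median log2 fold change was 1.33 for 5' UTR peaks and 1.33 for all peaks. Without WT replicates 5 and 6 the medians were 0.48 and 0.38, in batch 1 alone 0.58 and 0.43, and in batch 2 alone 2.19 and 2.29. The whole table also shifted with the scaling. In DESeq2 the median over all peaks was 0.85 with the deposited size factors and 0.07 with size factors estimated on the peaks. In edgeR it was 0.86 with the deposited size factors and 0.12 with TMM factors.

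DESeq2 with the deposited size factors called 45 5' UTR peaks higher in G12D tumours, which is 15.8% of 284, against 9.77% of all peaks, and 2 lower (0.704%, against 0.349%). The same 47 peaks were called in the authors' deposited table. Without WT replicates 5 and 6, a fit added after seeing the data, DESeq2 called 9 higher, or 3.17%, against 1.98% of all peaks, and 0 lower. With estimated size factors it called 1 higher and 3 lower, or 1.41%, against 1.54% of all peaks. edgeR's quasi-likelihood test called 1 of 272 in either direction, against 0.133% of all peaks. Of the 284 peaks, 207 stood in the G12D peak list only and 4 in the WT list only. Peaks found through the G12D libraries alone are favoured to be higher there. The excess of higher over lower peaks, here and in limma, is therefore no independent support for a genotype effect. The part of that selection in it was not tested.

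**Figure D5:**
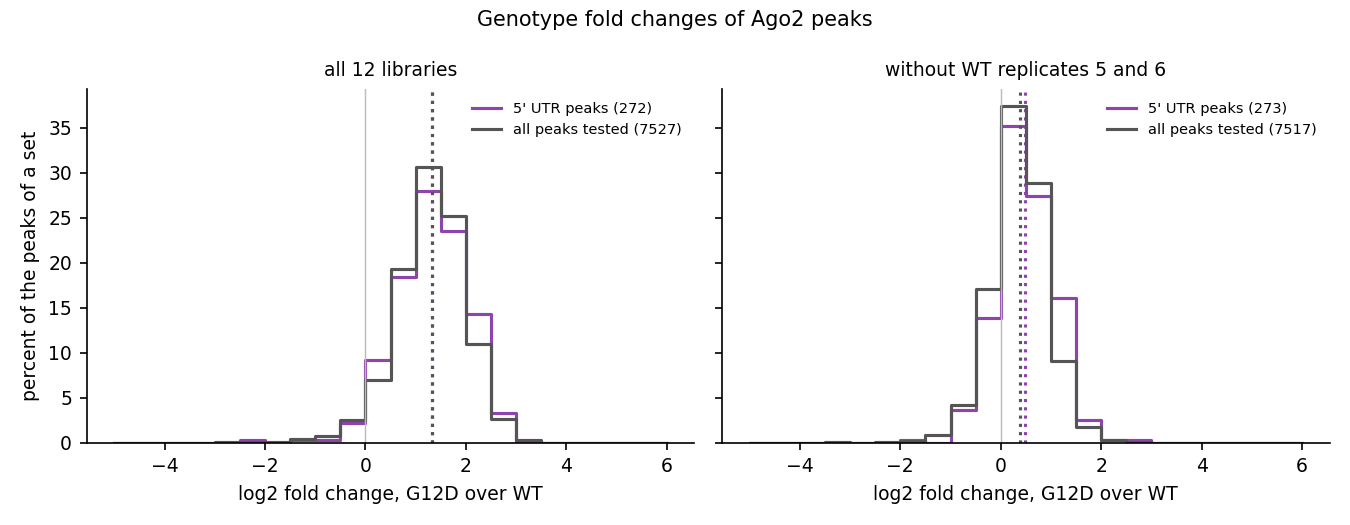
Percent of peaks (y axis) by limma log2 fold change, G12D over WT (x axis, bins of 0.5), for 5' UTR peaks (purple) and all peaks tested (grey), with all 12 libraries (left) and without WT replicates 5 and 6 (right). Dotted lines are medians. Both sets lie to the right of 0 and move together, from medians of 1.33 with all libraries to 0.48 and 0.38 without the 2.

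The DESeq2 call with the smallest p was a lower one, on Prox1, a homeobox factor and Wnt target. Its peak had 0, 0.757 and 4.27 normalised counts in G12D tumours and 1.12, 6.98 and 81.9 in WT tumours. The highest WT value came from replicate 6, as 34 reads, and the other 5 WT tumours reached at most 11.9. Prox1 had a log2 fold change of -3.77 ± 0.77 in DESeq2 (adjusted p = 0.000672), was the peak that edgeR called (adjusted p = 0.0206), and was at -2.22 ± 0.77 in limma (adjusted p = 0.108). Fosl2, a subunit of the AP-1 factor, was the other, with a DESeq2 adjusted p of 0.0496 and with 0, 4.56 and 15.6 normalised counts in G12D tumours, against 3.36, 7.74 and 67.9 in WT tumours. Without WT replicates 5 and 6, DESeq2 gave Prox1 no adjusted p (log2 -2.81 ± 1.00) and did not call Fosl2 (-0.68 ± 0.67, adjusted p = 0.617).

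All 6 G12D tumours lay above all 6 WT tumours at 4 of the 284 peaks (1.41%, against 1.66% of all 7730 peaks) and below them at 0. The 4 were on Tacc2, a protein of the centrosome, Memo1, which acts in cell migration, Fam204a, and the transcript RP23-424C4.5. The Tacc2 peak had 20.05, 29.95 and 44.9 normalised counts in G12D tumours and 0, 6.27 and 11.4 in WT tumours, and it carries an 8-mer site for miR-24. Its log2 fold change was 2.14 ± 0.48 in DESeq2 (adjusted p = 0.00274) and 2.52 ± 0.69 in limma (adjusted p = 0.108). Fam204a had 73.3, 103 and 149 normalised counts in G12D tumours and 0, 30.7 and 60.4 in WT tumours, and Memo1 had 17.5, 24.6 and 41.7 in G12D tumours and 0, 6.48 and 14.8 in WT tumours. Another Tacc2 peak, with a miR-194 site, had 8.55, 24.0 and 39.4 in G12D tumours and 0, 18.3 and 28.9 in WT tumours, which overlap.

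The largest positive log2 fold changes in limma among peaks with a mean of at least 20, none of them called, were 2.90 ± 0.81 for S100a1, a calcium-binding protein, 2.83 ± 0.80 for Hist1h2bk and 2.57 ± 0.81 for Plekhg6. Ptp4a3, a phosphatase tied to metastasis, was at 2.51 ± 0.80 and carries a miR-24 site. The lowest was Lmo7, a protein of cell junctions, at -0.79 ± 0.80, with 6.39, 8.11 and 31.4 normalised counts in G12D tumours and 0, 28.9 and 47.4 in WT tumours. These are extremes by choice.

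Among the 27 peaks with a miR-24 site, the median limma log2 fold change was 1.67, against 1.33 over all peaks, and DESeq2 with the deposited size factors called 9, where it called 10.1% of all peaks and 16.5% of 5' UTR peaks in either direction. The H2B calls given above are among the 9. For the 30 tested let-7 peaks the median was 1.21, with 3 of the 31 called, and for the 22 miR-29 peaks 1.71 with 2 called. High values were not particular to miR-24: the median was 1.87 for the miR-15/16 family (4 of 18 called), miR-21-3p (4 of 9) and miR-27 (3 of 7). Lower ones were 0.99 for the miR-200 family (1 of 12 called) and 1.11 for the miR-17 family (0 of 11). With estimated size factors DESeq2 called 1 miR-24 peak and 0 let-7 and 0 miR-29 peaks. None passed limma.

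Of all 3933 genes named by a peak, 266 (6.76%) had one in the 5' UTR. Gene lists are given beside that share, with no test of the lists. Of 28 mRNAs listed for an oligopyrimidine tract at the 5' end, 15 had a peak in some region and 3 had one in the 5' UTR: Eef2 (elongation factor, with a mean of 40.7 normalised counts), Rpl10 (3.56) and Rplp0 (0.0591), where the last 2 are ribosomal proteins with means below the filter of 5. The Eef2 peak also names Dapk3 and the Rplp0 peak also names Gcn1l1, so the 5' UTR label may belong to the other gene. Of 26 genes of cap binding and translation start, 19 had a peak and 1, Eif4g1, the scaffold of the cap-binding complex, had one in the 5' UTR. Eif4g1 had 9.68, 16.9 and 38.5 normalised counts in G12D tumours and 0, 8.09 and 12.1 in WT tumours, was called by DESeq2 with the deposited size factors (log2 1.27 ± 0.44, adjusted p = 0.0429) and not by limma (adjusted p = 0.127).

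Of 24 genes controlled by upstream reading frames or stress, 11 had a peak and 3 had one in the 5' UTR, none called by limma or DESeq2. Atf4, the transcription factor whose translation rises in stress through its upstream frames, had 6.95, 11.7 and 23.9 normalised counts in G12D tumours and 0, 10.8 and 15.2 in WT tumours. Mdm2, the ubiquitin ligase of p53, had 9.26, 15.01 and 40.04 in G12D tumours and 0, 6.27 and 19.0 in WT tumours. Oaz1, an antizyme that limits polyamine synthesis, had 11.6, 12.5 and 20.6 in G12D tumours and 0, 10.3 and 22.7 in WT tumours. All 3 overlapped between genotypes.

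The Wnt target list, of 30 genes with 22 bound, had 3 in the 5' UTR, Prox1, Mmp7 and Jun, of which DESeq2 called Prox1. Jun, a subunit of AP-1, had 8.99, 28.7 and 49.5 normalised counts in G12D tumours and 0, 8.19 and 38.5 in WT tumours. The list of MAPK output and feedback genes had 17 of 28 genes bound, 14 of them in 3' UTRs and 0 in 5' UTRs. Of 27 genes of the miRNA machinery, 21 were bound and 1, Dgcr8, the partner of Drosha, in the 5' UTR, with an 8-mer let-7 site and 3.42, 12.9 and 63.2 normalised counts in G12D tumours, against 0, 9.59 and 39.8 in WT tumours. Of 22 snoRNA host and small nucleolar genes 8 were bound and 1, Snhg3, had a peak labelled 5' UTR, with 81.0, 114 and 145 in G12D tumours and 38.6, 60.3 and 104 in WT tumours. The Snhg3 peak also names Rcc1, and the label may be that of Rcc1. The marker lists gave Muc2 and Cldn7 for colon epithelium, Col5a2 for fibroblasts, Ly6g for leukocytes and 0 genes for endothelium and nerve. None of these list members passed limma.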

How the data were processed

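The labels describe 36 libraries, and the 12 mRNA libraries (6 G12D, 6 WT) were used here, with miRNA libraries only for family levels. Headers of the deposited peak columns give a model and number only, and these columns were read as mRNA libraries. Per the submitters' processing notes, STAR 2.5.2b, DESeq2, mm10 and GRCm38 were used, with no roles named, and which program called the peaks is not stated there. The authors deposited a signal table of counts divided by a size factor per library, a table of log2 fold changes and adjusted p-values from their own comparison, and 1 peak list per genotype with a score per peak, which was not used to compare genotypes. All values (100%) were whole multiples of 1 read within a tolerance of 0.001 reads, so reads could be recovered.

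Here limma 3.58.1 (limma-trend, R 4.3.3, batch as covariate) tested log2(value + 1) over all peaks with a mean of at least 5, and p-values were Benjamini-Hochberg adjusted over all of them. Fold changes in limma depended on the added value: the median log2 fold change of 5' UTR peaks was 1.49 with 0.5 added, 1.33 with 1 and 0.90 with 5. With 1 added they were not the smaller ones, since DESeq2 with the deposited size factors gave a median of 0.92. edgeR 4.0.16 and DESeq2 1.42.0 on recovered reads were alternatives. The scripts were tested on simulated data. Shares were compared by exact permutation over libraries, and intervals cover counting error only. Gene starts, miRNA and start-window sequences are RefSeq's (GRCm38.p6), and 517 of 596 miRNAs matched by name. The members and gene lists were chosen with earlier results of these data known. Named peaks came from a rule (112 peaks): the 15 of highest mean, extremes of fold change, called peaks, genes with several peaks, the top peak of each seed family, list members and genes with 5' and 3' UTR peaks. The remaining H2B genes, Fosl2, Memo1 and the peaks with printed sequence or leading reads were added after their values were seen. Peaks on chromosome 18 were counted and tested, and no sequence of them was read. The gene of the allele that separates the groups is not reported here.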

Additional observations from a re-analysis of the deposited data

Results flagged for a closer look

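In 100 groups of 6 libraries examined (5 library measures and the 5' UTR peaks named for their level, list, H2B site, call or reads in genes with 5' and 3' UTR peaks, each within a genotype), 14 held a library far apart from the other 5 by Dixon's criterion, the gap to the nearest library divided by the group's range. The criterion flags about 1 in 20 groups of independent, normally distributed values. These groups share libraries and hold counts that were not log-transformed, so that rate does not apply to the 14. WT replicate 4 was the high library for 8 of them: Muc2 at 1507 normalised counts, Mmp7 at 396, AC132303.1 at 351, Nucb1 at 278, Hist1h2be at 94.8, Hist1h2bm at 47.9, Jun at 38.5 and Col5a2 at 31.1. It was also the deepest WT library, with 770237 reads in peaks, and the part of depth in these values was not tested. The 2 flagged peaks of the shallow WT libraries were Ctnnd1, at 779 normalised counts in WT replicate 5, and Prox1, at 81.9 in WT replicate 6. Among G12D tumours, replicate 1 stood apart for the weaker of its Trp53inp1 peaks, at 82.0, and for Mdm2, at 40.04. Replicate 4 stood apart for Prox1 at 4.27, and replicate 6 for Rplp0, at 0.710, which was a single read.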

How the results depend on the processing

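No 5' UTR peak was called by limma with a pseudocount of 0.5, with no filter or a mean of at least 20, without the batch covariate, with the replicate block (0 called), in batch 1 alone or without WT replicates 5 and 6. A pseudocount of 5 gave 25 calls, library quality weights 39, batch 2 alone 6, edgeR 1 with either scaling, DESeq2 47 with the deposited and 4 with estimated size factors, and DESeq2 without WT replicates 5 and 6, chosen after seeing the data, 9. Leaving out 1 library gave 0 to 127 calls, with all 127 from the fit without WT replicate 4. The genotype difference in 5' UTR read share turned to -0.00124 points for peaks with a mean of at least 20, to -0.0497 for peaks within 1 kb of the gene start (chosen after seeing the data) and to -0.174 without WT replicates 5 and 6. It ran from -0.125 to 0.318 points with 1 library left out, with the sign turned in 5 of 12 cases, and in no setting passed the test. The difference in median log2 level was 0.225 without WT replicates 5 and 6, where it passed (exact permutation p = 0.0333), and turned to -0.0215 in batch 2 alone. The seed-site difference stayed negative except for 8-mers alone (1.08 points) and missed the threshold in G12D libraries (-4.46) and in WT libraries alone (-16.1). Same-numbered samples did not deviate together (correlations from -0.516 to 0.306). The labels do not say whether the numbers pair samples, and these correlations cannot settle it. With the replicate block the exact permutation p for read share, share within genes and median difference was 0.781, 0.438 and 0.219. The cause of these changes was not tested. At the depth of WT replicates 5 and 6, a read is worth 4.53 and 2.41 normalised counts, so lower levels cannot be seen there.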
